A study of Mus musculus with 4 samples.

Results

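Dntt, Igll1, Vpreb1, Vpreb3, Cd79a, Cd79b, Ebf1, Pax5, Rag1 and Il7r are 10 genes that mark the way from a multipotent progenitor to a precursor B cell. They were found by their symbols among the 27998 genes of the deposited counts, and all 10 were present. The question asked of them was in which order they come on in sorted progenitors, whether single cells hold them together with Kit, and whether their levels differ after loss of the nucleoporin Nup358. RNA of live Lin-Sca1+cKit+ (LSK) cells, the bone marrow fraction that holds stem cells and multipotent progenitors, was counted in single cells in 4 libraries, 2 per genotype, each made from 3 pooled bone marrows. The controls, labelled wild-type, were Nup358 fl/fl, and the knockouts were Nup358 fl/fl with CreERT2 as well, a tamoxifen-dependent Cre recombinase expressed in all tissues. Both genotypes carry the floxed allele. Mice were 9 to 12 weeks old and were analysed 5 days after tamoxifen, which was injected on 3 days in a row. This scheme is stated for the mice in general and not for the sequenced ones separately. No other allele, strain or agent is given. Since the Cre acts in all tissues, changes in the progenitors and in the cells around them cannot be told apart. Each genotype rests on 2 pools, so that p-values measure the spread between 2 pools of mice.

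A B cell precursor makes its heavy chain first, and tests it on the surface together with the surrogate light chain, which the products of Vpreb1 and Igll1 build. Cd79a and Cd79b encode the pair of signalling chains that carry this pre-B receptor and later the mature B cell receptor. Ebf1 and Pax5 are the transcription factors that specify and then lock in the B lineage, Il7r is the receptor for the growth factor interleukin 7, Rag1 is part of the recombinase that cuts the antigen receptor genes, and Dntt adds bases at the cut ends. Kit, the receptor for stem cell factor, is the surface protein by which LSK cells are sorted, and precursors lose it as they become B cells.

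Igll1 (chromosome 16, 16860671 to 16863985) and Vpreb1 (chromosome 16, 16868403 to 16870843) lie on the same strand of GRCm38 with 4417 bases between them. The 250 bases before the start were read from RefSeq windows on GRCm38.p6, which were at hand for 9 of the 10 genes. The E-box CAGGTG, searched on both strands, is a motif that E proteins bind, and it was in the windows of 4 of these 9 genes, Cd79a, Igll1, Rag1 and Vpreb1, and in 17.2% of all 32851 windows. CCCNNGGG, the core of the motif that Ebf1 binds, was in the window of Igll1 only among the 9, and in 11.8% of all windows. Neither motif overlaps the other here. The windows of both surrogate light chain genes and of Cd79a (chromosome 7, 24897381 to 24902197) are shown because they hold the E-box and their genes encode parts of the pre-B cell receptor, with the matches in capitals. Starts are those of RefSeq transcripts, which for Vpreb1 and Cd79a lie inside the GENCODE bounds given here.
Igll1, chr16:16863986-16864235, minus strand: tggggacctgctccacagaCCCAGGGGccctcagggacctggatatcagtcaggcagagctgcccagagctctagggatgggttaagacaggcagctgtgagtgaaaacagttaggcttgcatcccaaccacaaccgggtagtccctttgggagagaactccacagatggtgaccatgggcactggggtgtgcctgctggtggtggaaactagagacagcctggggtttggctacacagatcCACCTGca
Vpreb1, chr16:16869256-16869505, minus strand: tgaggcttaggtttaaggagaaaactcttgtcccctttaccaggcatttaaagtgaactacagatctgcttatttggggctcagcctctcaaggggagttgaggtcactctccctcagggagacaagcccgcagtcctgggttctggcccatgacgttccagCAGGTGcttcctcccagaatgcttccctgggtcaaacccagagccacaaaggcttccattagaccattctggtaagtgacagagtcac
Cd79a, chr7:24897247-24897496, plus strand: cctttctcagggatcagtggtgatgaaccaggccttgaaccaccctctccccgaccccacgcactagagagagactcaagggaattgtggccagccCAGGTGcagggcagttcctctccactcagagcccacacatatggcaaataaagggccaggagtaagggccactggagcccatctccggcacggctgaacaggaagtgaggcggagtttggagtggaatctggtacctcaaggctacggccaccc
In the Igll1 window the E-box began 8 bases before the start and the Ebf1 core 231 bases before it. The E-box of Vpreb1 began 88 bases before the start, and that of Cd79a 154 bases. A match of letters shows no binding.

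Of 25242 barcodes, 24973 had at least 200 genes and at most 10% mitochondrial UMIs and were kept, with 25035656 to 60244814 UMIs per library. A UMI, the tag on each captured transcript, stands for 1 molecule. The libraries share barcode sequences, and 6680 sequences occurred in more than 1 library among the deposited barcodes. Whether these are the same cells was not tested. A kept barcode was called copied when its sequence occurred in a second library with 3 or more times its UMIs, and 10932 kept barcodes (43.8%) were, from 14.9% in control replicate 1 to 82.3% in control replicate 2. The members were affected unequally. In control replicate 2, 234 of the 264 Igll1 UMIs (88.6%) lay in copied barcodes, and for 213 of them the larger copy was in knockout replicate 2. Of 89 copied cells with Igll1 there, 89 had Igll1 in the larger copy as well. For Dntt the copied share in the same library was 13.8%. Values are therefore given for all kept cells and again without copied barcodes, which leaves 7830 and 1200 control cells and 1589 and 3422 knockout cells. Nup358, listed as Ranbp2, was at 127 and 106 CPM in the controls and 122 and 126 CPM in the knockouts (CPM, UMIs scaled to the same total in every library or cluster). The deletion removes exon 2 and the counts are 3′ tags, so this level does not check the labels.

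To describe the order of onset, cells were clustered without the 10 genes, and each gene was set against its own highest cluster. Cluster 6, with 357 cells and 10 of 11 other B precursor markers raised, was called B-progenitor-like. Cluster 23, with 246 cells, was called mature B-like, with 7 of 7 mature B cell markers raised and 8 of the 11 B precursor ones. The sort removed cells with lineage markers, so that mature B cells are not part of the gate. With copied barcodes left out, the members fell into 3 kinds. Dntt (chromosome 19, 41029275 to 41059525) was spread over progenitors of many kinds, at 158 CPM in the stem-like cluster 1, at 224 and 251 CPM in the unnamed clusters 13 and 14, and at 453 CPM in cluster 6. Only 5.0% of its UMIs lay in cluster 6. Cd79b (chromosome 11, 106311341 to 106314762) was also broad, from 10.0 to 217 CPM in the 15 other clusters with 50 cells or more, then 509 CPM in the B-progenitor-like and 1950 CPM in the mature B-like cells.

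Il7r (chromosome 15, 9505788 to 9530176) held a middle place. Cluster 6 had 39.7% of its UMIs at 140.2 CPM. A further 17.5% lay in cluster 17 at 65.1 CPM, which had 7 of 7 plasmacytoid dendritic markers raised but also 6 of 7 T or NK markers, so that the kind of cell that holds this Il7r was not resolved. The T cell and NK cell genes Ccl5 and Cd7 were among the 10 leading genes of that cluster, and when cells were clustered with the members included, 79 cells formed a T or NK-like cluster of their own. Clusters 13 and 14 held 14.3% and 11.8% of the Il7r UMIs. Rag1 (chromosome 2, 101638282 to 101649501) rested on 89 UMIs in all, with 76.4% of them in cluster 6, 9.0% in cluster 13 and 5.6% in the mature B-like cells. Its order among the others is not fixed by so few counts.

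Most UMIs of the remaining members lay in the B-progenitor-like, mature B-like and plasma-like clusters. Igll1 was the most restricted, with 99.2% of its UMIs in cluster 6 at 1811 CPM, at most 0.815 CPM in the 15 other clusters and no UMI in 244 mature B-like cells. That count allows up to 1.23% of cells with a UMI in these shallow cells (median 1312 UMIs with copied barcodes kept) and sets no limit on expression. Vpreb1 had 92.8% of its UMIs in cluster 6 at 1998 CPM, and 2.2 CPM in the mature B-like cells. By cells it was less restricted, since 146 of the 485 cells with a Vpreb1 UMI, unthinned, lay in cluster 6. The helper of surrogate light chain assembly Vpreb3 (chromosome 10, 75943057 to 75949657) was at 1417 CPM in cluster 6 and 362 CPM in cluster 23. Ebf1 (chromosome 11, 44617317 to 45008091) stood at 941 and 1050.4 CPM in the same pair of clusters, Pax5 (chromosome 4, 44524757 to 44710487) at 308 and 455 CPM, and Cd79a at 1574 and 3913 CPM. Among clusters of 50 cells or more, Cd79a was the only one of these 6 above 100 CPM in any other cluster, the plasma-like cluster 21, with 440 CPM.

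**Figure D1:**
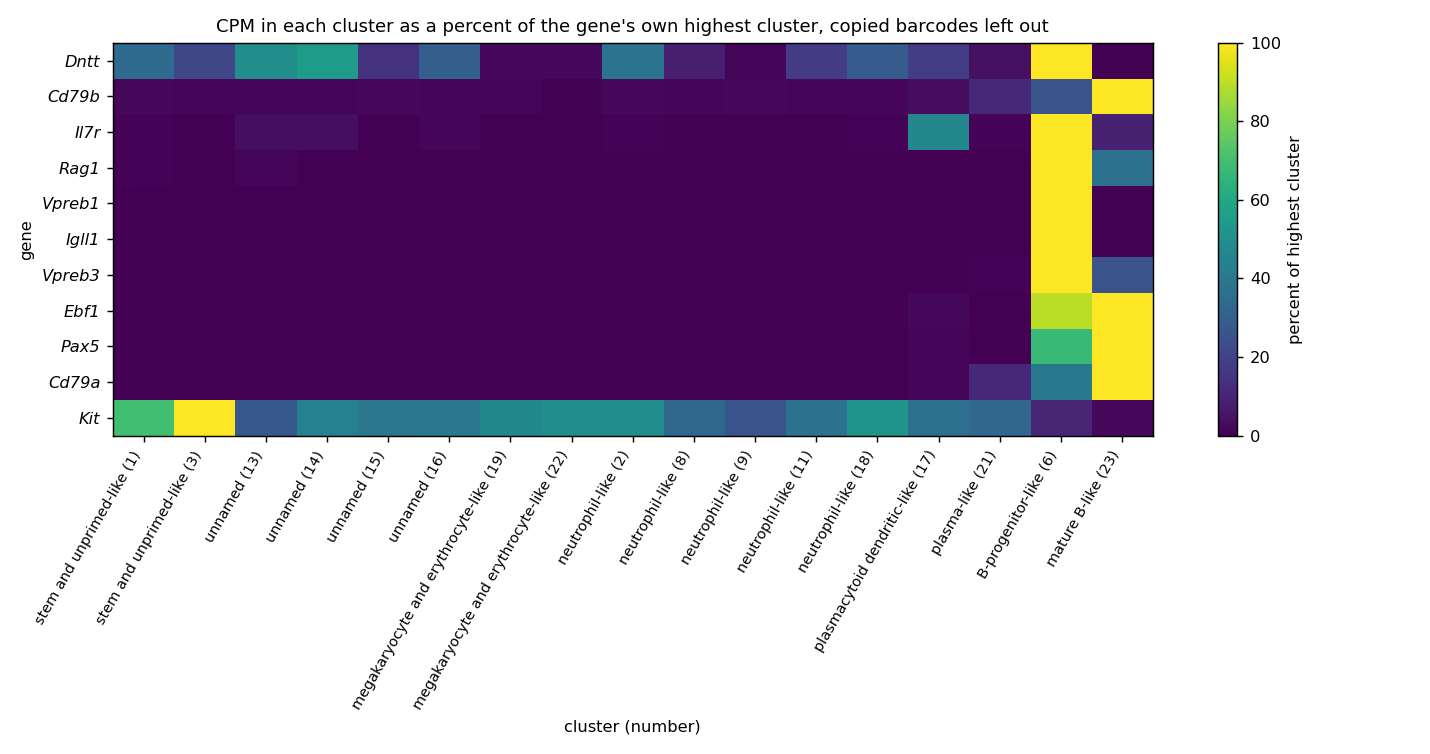
Level of each member and of Kit (rows) in the 17 clusters with at least 50 cells (columns), in CPM as a percent of the gene's own highest cluster, with copied barcodes left out and libraries pooled. Dntt is spread over stem-like, unnamed and neutrophil-like clusters, while Igll1 and Vpreb1 are bright in the B-progenitor-like cluster alone and Ebf1, Pax5, Cd79a and Cd79b also in the mature B-like one.

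The pair of surrogate light chain genes parted outside cluster 6. Within it, 90.6 UMIs of Igll1 were counted for every 100 of Vpreb1 (4301 and 4745 UMIs). Outside it the ratio was 9.54 for every 100 (35 and 367 UMIs), and it stayed low in each library, at 8.05, 16.7, 3.85 and 11 in control replicates 1 and 2 and knockout replicates 1 and 2. Vpreb1 was at 1.32 to 3.66 CPM in all 15 other clusters, with the upper end in a megakaryocyte and erythrocyte-like cluster. Vpreb1 has a close relative, Vpreb2, and reads of the pair could have been split or dropped in counting, which was not tested.

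Levels in the B-progenitor-like cluster varied between libraries, but few of its cells are independent. Without copied barcodes the cluster held 2, 2, 10 and 137 cells in control replicates 1 and 2 and knockout replicates 1 and 2, so that its levels are those of knockout replicate 2. There Igll1 was at 1890 CPM, against 1107 CPM in the 10 cells of knockout replicate 1, and Vpreb1 at 2084 against 1172 CPM. The mature B-like cluster had 3, 1, 85 and 155 cells in the same order.

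Co-detection with Kit was read first in cells thinned to 1000 UMIs, where a share does not depend on depth. Kit was present in 9.24% of all cells, in 8.3% of cells with Dntt (92 of 1114), 6.3% of cells with Cd79b (46 of 732) and 4.9% with Il7r (4 of 82). It was in 1.4% of cells with Vpreb1 (2 of 140), 0.93% with Ebf1 (2 of 214), 0.85% with Igll1 (1 of 117), 0.84% with Cd79a (3 of 359) and 0.68% with Vpreb3 (1 of 147). None of 105 cells with Pax5 or 9 with Rag1 had it. Many of these were mature B-like cells, of which 0 of 172 held Kit at this depth. They made up 168 of the 359 cells with Cd79a, 112 of the 214 with Ebf1 and 61 of the 105 with Pax5. Of cells with Vpreb3 they were 35 of 147 and of those with Cd79b 151 of 732, and none had Igll1 or Vpreb1. The low shares of Cd79a, Ebf1 and Pax5 thus describe mature B-like cells as well as precursors. With copied barcodes kept the order was led again by Dntt (7.8%) and Cd79b (6.1%). In the other direction, with copied barcodes kept, the 90 cells with 2 or more Kit UMIs held Dntt in 7.8% and Cd79b in 4.4%, and the other 8 members in none, which allows a share of up to 3.33% for each. In cells with no Kit UMI the same shares were 8.4% for Dntt and 5.3% for Cd79b, and 0.061% for Rag1 to 2.62% for Cd79a among the other 8. All 8 are below 3.33%, so that no difference was detectable for them with 90 cells.

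Thinning to 5000 UMIs, a depth added after the data were seen, left 10500 deeper cells in which Kit was detected in 34.3% (33.3 to 35.2%, exact 95% binomial interval). Most mature B-like cells, with a median of 1312 UMIs, are left out at this depth. Cells with Cd79b held Kit in 33.6% (31.4 to 35.8%), cells with Dntt in 30.3% (28.3 to 32.4%) and cells with Vpreb1 in 26.5% (21.2 to 32.4%). These values pool the libraries, and 156 of the 253 cells with Vpreb1 came from knockout replicate 2. In the pool the interval of Cd79b holds the value of all cells and that of Dntt lies below it, while the pooled value of Vpreb1 does not hold within the controls. Then came a group of 7 whose intervals overlap and whose order is not resolved, from Cd79a with 15.8% (11.6 to 20.8%) and Il7r with 15.7% (10.6 to 22.0%) to Igll1 with 11.9% (7.1 to 18.4%) and Pax5 with 11.8% (6.6 to 19.0%). Intervals cover counting error only, and doublets, which were not removed, would add Kit to B precursors. With copied barcodes kept, the values at this depth were 33.5% for Cd79b, 30.3% for Dntt and 26.4% for Vpreb1.

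**Figure D2:**
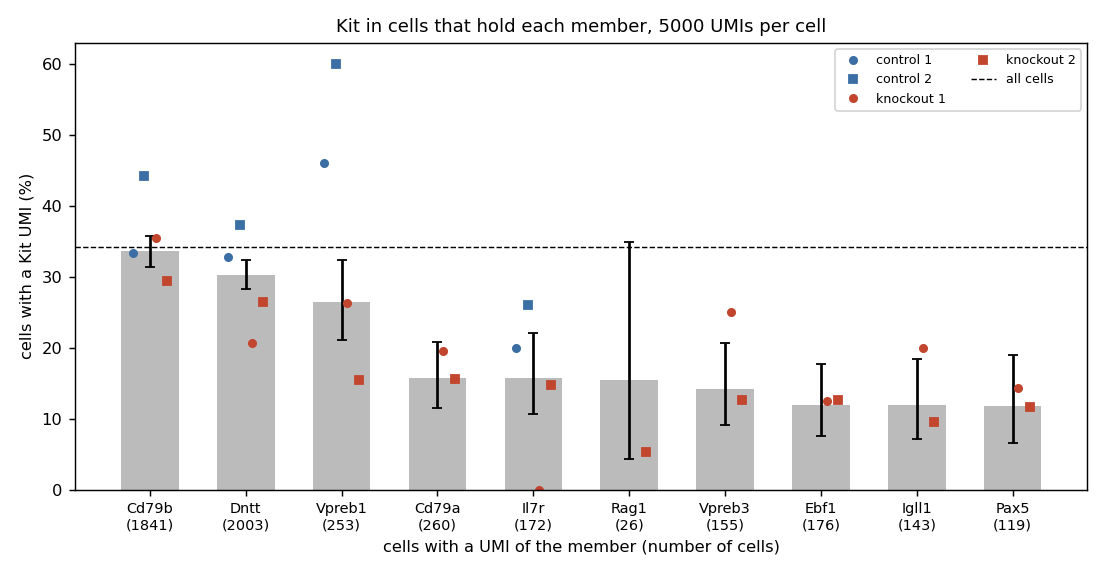
Percent of cells with a UMI of each member that also hold a UMI of Kit, in cells thinned to 5000 UMIs with copied barcodes left out. Bars show the 4 libraries together with the exact 95% binomial interval, points show libraries with at least 10 such cells, and the dashed line marks all cells at 34.3%. Cd79b, Dntt and Vpreb1 stand above the 7 other members, and for Vpreb1 the points of both controls (46.0% and 60%) lie above the dashed line.

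With libraries pooled, Kit itself was lower in amount in the cells with each member than over all cells. Over all cells without copied barcodes Kit was at 88.1 CPM (96.0 and 102.7 CPM in the controls, 89.8 and 73.3 CPM in the knockouts). It was at 81.7 CPM in cells with Cd79b, 79.8 CPM with Dntt and 68.0 CPM with Vpreb1. In cells with Il7r it was at 39.4 CPM and with Pax5 at 27.9 CPM, the lowest of the 10. Knockout replicate 2, the lowest library in Kit over all cells, gave 190 of the 357 cells with Il7r and 211 of the 285 with Pax5. By library, Kit with Il7r was at 75.6 and 57.6 CPM in the controls and 43.5 and 26.3 CPM in the knockouts. With Vpreb1 it was at 97.8 CPM in control replicate 1, above all cells there, and at 79.1, 74.2 and 52.8 CPM in the others. Flt3, a receptor of lymphoid-primed progenitors, was at 81.1 CPM in cells with Dntt, 87.6 CPM with Il7r, 12.1 CPM with Igll1 and 13.4 CPM with Pax5, against 42.6 CPM in all cells. Cells with Dntt, Il7r or Rag1 (64.6 CPM) were the ones above all cells in Flt3.

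The Kit share of cells with Vpreb1 was not the same in the 4 libraries. At 5000 UMIs, without copied barcodes, it was 46.0% and 60% in the controls (63 and 15 cells) and 26.3% and 15.4% in the knockouts (19 and 156 cells). For Dntt the values were 32.7% and 37.3% in the controls and 20.7% and 26.4% in the knockouts. In both genes the controls lay above the knockouts. Kit in all cells was at 35.0% and 41.9% in the controls and 33.7% and 30.4% in the knockouts at this depth. Cells with Dntt were thus below all cells in each of the 4 libraries, whereas cells with Vpreb1 held Kit more often than all cells in both controls and less often in both knockouts. The cells with Vpreb1 were not of like kinds. In unthinned counts without copied barcodes, 2 of 147 and 1 of 45 such control cells lay in the B-progenitor-like cluster. In the knockouts 10 of 57 and 133 of 236 did. Whether the Kit share differs between genotypes in cells of the same kind was not tested.

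Pairs of members were then read for nesting, the share of cells with one gene that hold the other against the reverse. At 5000 UMIs, without copied barcodes, 74.1% of cells with Igll1 also held Dntt, but 5.3% of cells with Dntt held Igll1. For Il7r and Dntt the shares were 77.9% and 6.7%, and for Pax5 and Dntt 66.4% and 3.9%. Dntt cells thus enclosed most cells with Igll1, Il7r or Pax5, but not most of those with Cd79a, of which 46.5% held Dntt. Cells with Il7r held Igll1 in 39.5% and Pax5 in 31.4%, and the shares in the opposite sense were 47.6% and 45.4%, so that Il7r was not enclosed by either. Between the transcription factors the nesting was clear. Of cells with Pax5, 91.6% held Ebf1, and of cells with Ebf1, 61.9% held Pax5. Likewise 96.6% of cells with Pax5 held Cd79a, and 44.2% the reverse. Vpreb1 enclosed Igll1, with 93.7% of cells with Igll1 holding Vpreb1 and 53.0% of cells with Vpreb1 holding Igll1. Genes of unequal abundance nest for that reason alone, and these shares are a description with no test.

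**Figure D3:**
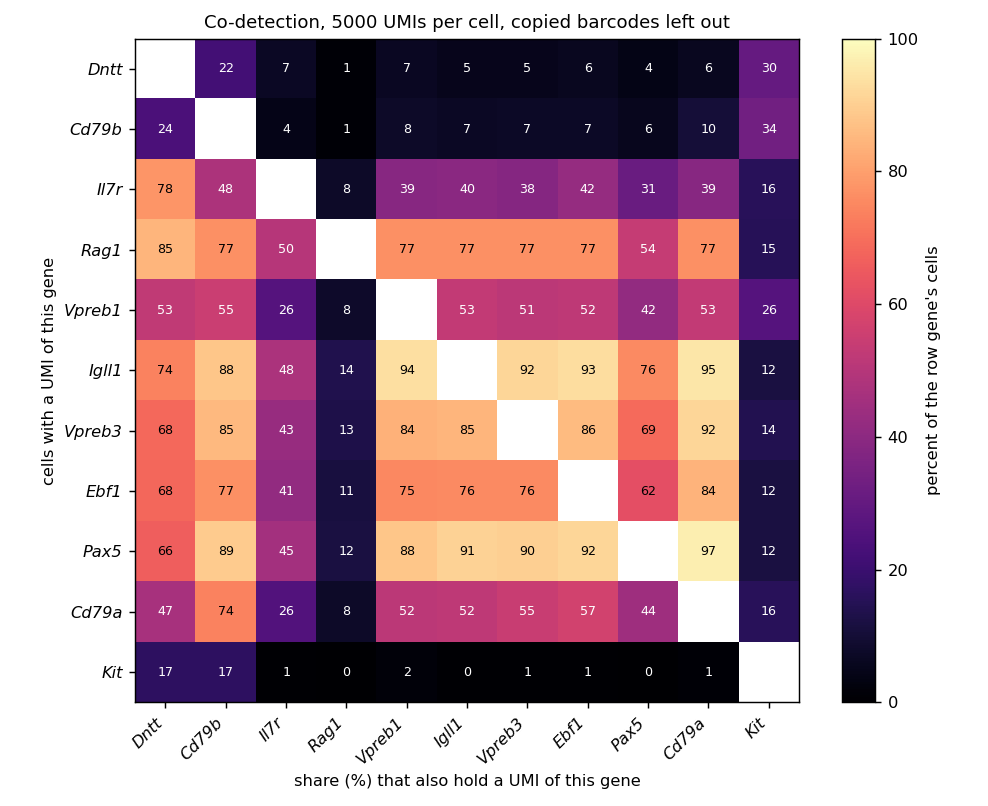
Co-detection of the members and Kit in cells thinned to 5000 UMIs with copied barcodes left out. Each square gives the percent of cells with a UMI of the row gene that also hold a UMI of the column gene. The Dntt and Cd79b rows are dark while their columns are bright, and Igll1, Vpreb3, Ebf1 and Pax5 form a bright block.

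The number of members per cell was also read. Among cells with no other member, in unthinned counts without copied barcodes, 27.4% held Cd79b, 20.1% Dntt and 2.0% Vpreb1, while Ebf1 was in 0.18%, Igll1 in 0.17%, Vpreb3 in 0.15%, Pax5 in 0.028% and Rag1 in none. Among cells with 5 or more others, Ebf1 was found in 98.7%, Cd79a in 97.4%, Vpreb3 in 94.4% and Pax5 in 91.2%. Cd79b was at 97.4% there as well, and Vpreb1 (74.6%), Igll1 (74.0%) and Dntt (72.2%) were close to each other. This set is not limited to B precursors, with 196 cells read for Igll1 against 151 cells in the B-progenitor-like cluster. In that cluster alone Vpreb1 was in 96.7%, Igll1 in 97.4% and Dntt in 91.4%, so that the lower shares give no order among the members. Cells with 5 or more members numbered 4 and 3 in the controls and 31 and 158 in the knockouts. With copied barcodes kept the counts were 12, 79, 67 and 159, and control replicate 2 then stood above knockout replicate 1. All 10 members together were found in 0 and 0 control cells and in 1 and 23 knockout cells.

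For knockout against control, UMIs were summed per library. A sum cannot tell more cells of a kind from more RNA per cell. Among the surrogate light chain genes, Igll1 was at 1.08 and 10.5 CPM in the controls and 10.7 and 73.4 CPM in the knockouts. Knockout replicate 2 was high, and control replicate 2 and knockout replicate 1 were level. Without copied barcodes the values became 0.559 and 1.59 CPM against 7.94 and 74.5 CPM, so that the groups lay apart. Vpreb1 was at 3.45 and 14.8 CPM in the controls and 12.4 and 82.8 CPM in the knockouts, which overlap, and at 2.95, 4.46, 9.93 and 84.1 CPM without copied barcodes, which do not. Vpreb3 was at 1.16, 9.11, 10.9 and 58.7 CPM in the same order of libraries, and at 0.779, 2.39, 9.32 and 59.5 CPM without copied barcodes.

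Of the receptor chains, Cd79a was at 2.32 and 14.1 CPM in the controls and at 41.3 and 90.8 CPM in the knockouts. Here the groups lay apart with copied barcodes (8.19 ± 8.30 against 66.0 ± 35.0 CPM, mean ± SD, n = 2) and without them (1.88 and 5.36 against 41.4 and 92.0 CPM). Cd79b differed little, with 41.5 and 39.2 CPM against 47.2 and 60.1 CPM. Only 15.4% and 11.5% of its UMIs lay in the B-progenitor-like and mature B-like clusters. The factor Ebf1 was at 0.730, 5.75, 14.5 and 42.4 CPM and Pax5 at 0.249, 2.16, 5.22 and 14.4 CPM, with both knockouts above both controls. Without copied barcodes the control sums of Pax5 were 5 and 11 UMIs, against 161 and 789 in the knockouts.

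Dntt, Il7r and Rag1 overlapped between the genotypes. Dntt was at 87.2 and 212 CPM in the controls and 105 and 161 CPM in the knockouts, so that both knockouts lay between the controls. Il7r was at 1.71 and 6.87 CPM against 4.24 and 8.86 CPM, and Rag1 at 0.0664 and 0.320 against 0.195 and 1.33 CPM, which overlap too. Kit was at 95.7 and 96.4 CPM in the controls and at 88.1 and 73.5 CPM in the knockouts (log2 fold change -0.28, adjusted p = 0.229 by edgeR).

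**Figure D4:**
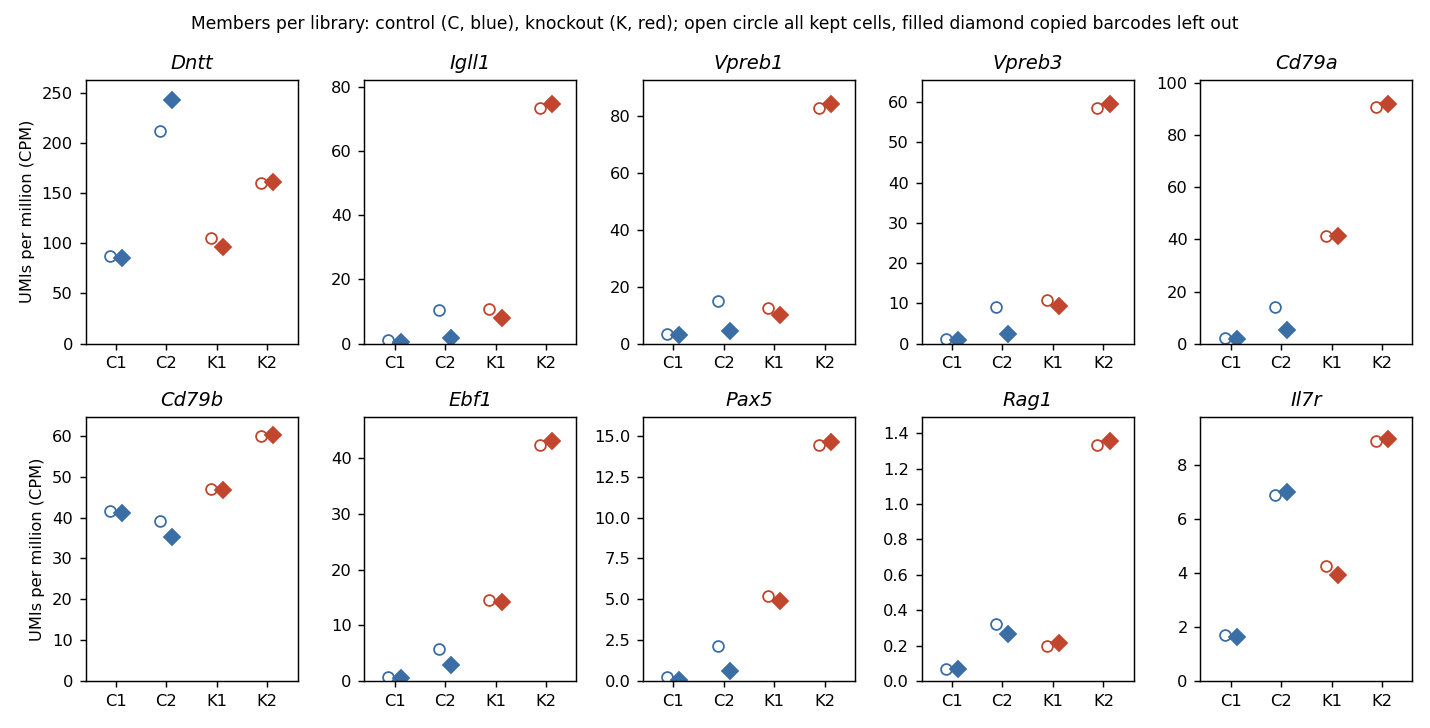
CPM of each member in control libraries (C1 and C2, blue) and knockout libraries (K1 and K2, red), for all kept cells (open circles) and without copied barcodes (filled diamonds). For Igll1, Vpreb1, Vpreb3, Cd79a, Ebf1 and Pax5 control replicate 2 drops when copied barcodes are left out, and knockout replicate 2 is the highest library. Dntt is highest in control replicate 2.

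Counted over members, both knockouts were above both controls for 6 of 10, and for 7 of 10 without copied barcodes. The same held for 30.1% and 30.2% of all genes with 20 or more UMIs. By the quasi-likelihood test of edgeR, adjusted after Benjamini and Hochberg, 0 of 10 members passed 0.05, where 0.91% of the 13844 genes tested were higher in the knockout. An unadjusted p below 0.05 was found for 7 members and for 3176 of all genes tested, in either direction. DESeq2 called 0 members as well, with 5 members and 2463 of all genes at that unadjusted level. Fitted log2 fold changes were 3.29 for Ebf1 (SE 0.879, adjusted p = 0.0876), 3.28 for Pax5 (SE 0.868, adjusted p = 0.0867) and 3.06 for Cd79a (SE 0.774, adjusted p = 0.0785). Igll1 followed with 2.96 (adjusted p = 0.188), then Vpreb3 with 2.87 and Vpreb1 with 2.42, and Dntt was at -0.21 (adjusted p = 0.803). The median of the 10 was 2.64, against -0.01 over all genes tested.

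Without copied barcodes 3 of 10 rose, against 1.37% of all 13779 genes tested. Cd79a was higher by a log2 fold change of 4.29 (SE 0.584, adjusted p = 0.0178), Pax5 by 5.38 (SE 0.851, adjusted p = 0.0261) and Ebf1 by 4.30 (SE 0.824, adjusted p = 0.0425). Igll1 at 5.48 (SE 1.14, adjusted p = 0.0541), Vpreb3 at 4.63 (SE 0.968, adjusted p = 0.0542) and Vpreb1 at 3.69 (adjusted p = 0.0765) did not pass. The control arm then rests on 1200 cells in replicate 2. In all kept cells, the median log2 fold change of the 10 members (2.64 with every library in) moved when a single library was dropped. Dropping the first control gave 1.77, and dropping the second gave 4.30. Among the knockouts, dropping replicate 1 gave 3.34 and dropping replicate 2 gave 0.67. Calls from these fits are not compared, since a genotype with a lone library has no spread of its own.

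Mature B-like cells were present almost only in the knockouts, with 3 and 2 cells in the controls and 86 and 155 in the knockouts, and 7 of their 7 markers were raised in that cluster. They hold Cd79a, Cd79b, Ebf1 and Pax5, and 27.8%, 11.5%, 17.0% and 21.8% of the UMIs of these genes without copied barcodes lay there. These shares pool the libraries. With copied barcodes kept, leaving out the cluster took Cd79a from 1478 to 704 UMIs in knockout replicate 1 and from 4969 to 3941 in knockout replicate 2. In the same order, Pax5 went from 187 to 97 and from 790 to 673 UMIs. Ebf1 went from 520 to 299 and from 2321 to 2068, and Cd79b from 1689 to 1314 and from 3291 to 2779. With the mature B-like cluster left out and copied barcodes kept, both knockouts were above both controls for 5 members, Igll1, Vpreb3, Cd79a, Ebf1 and Pax5. The share of all genes was not counted in this set, and was 30.1% with the cluster in. Control replicate 2 and knockout replicate 1 were at 10.5 and 10.7 CPM for Igll1, 8.55 and 9.64 CPM for Vpreb3, and 2.12 and 2.73 CPM for Pax5. For Cd79a they were at 13.8 and 19.8 CPM, and for Ebf1 at 5.23 and 8.40 CPM. In the fit without the cluster 0 of 10 passed, where 0.6% of the 13829 genes tested were higher in the knockout. By edgeR 6 members and 3162 of all genes were at an unadjusted p below 0.05. With the cluster in, 0 of 10 had passed as well, so that the count could not fall. The fit without copied barcodes was not repeated without the cluster. What such cells add to the other comparisons was not tested.

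**Figure D5:**
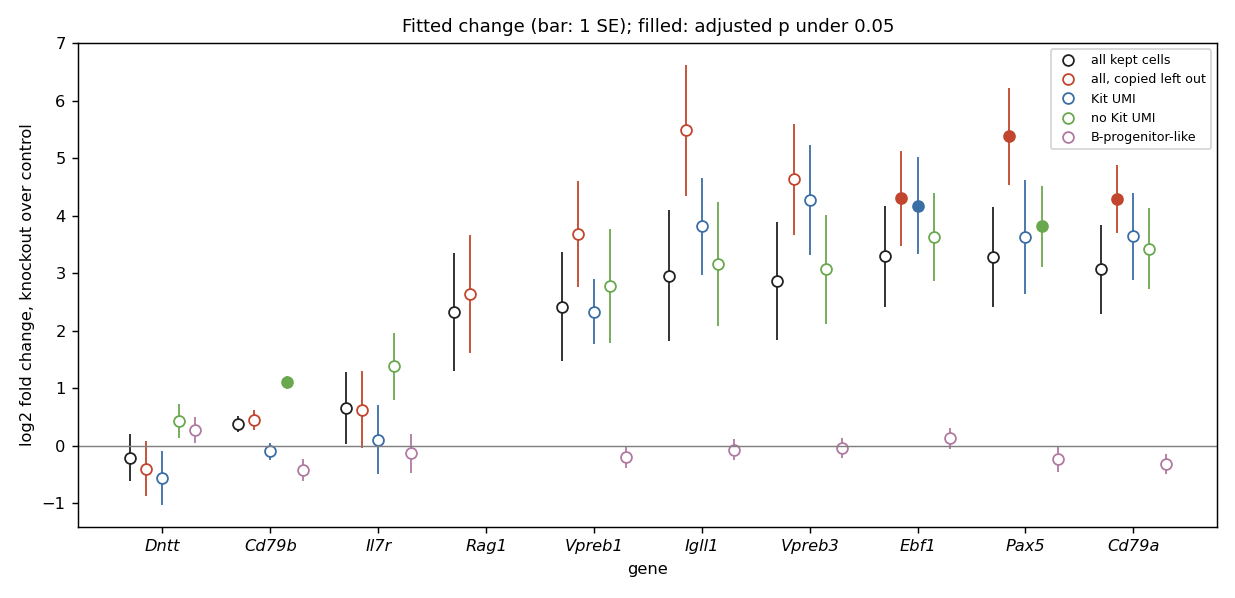
Fitted log2 fold change, knockout over control, of each member in 5 sets of cells, with 1 SE as the bar and filled points where the adjusted p of edgeR is below 0.05. Changes of 2 or more are seen for Igll1, Vpreb1, Vpreb3, Cd79a, Ebf1 and Pax5 in the sums over all kept cells. In the B-progenitor-like cluster all 9 tested members lie between -0.42 and 0.28. Only 2 and 2 of the 31 and 107 control cells of that cluster are not copied barcodes, so that its values do not compare independent cells.

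Cells were next split by Kit. In cells with a Kit UMI 9 members were tested and 1 passed, Ebf1, with a log2 fold change of 4.17 (SE 0.844, adjusted p = 0.0494). In this set 0.913% of all genes passed in the same direction. Ebf1 was at 0.0629 and 1.38 CPM in the controls and at 6.57 and 13.7 CPM in the knockouts. These values rest on few cells, with 2 and 21 UMIs in 2 and 3 control cells. In the knockouts they rest on 175 and 496 UMIs in 18 and 64 cells. Without copied barcodes the log2 fold change of Ebf1 was 4.13 (adjusted p = 0.0566) and 0 of 9 passed, where 0.815% of all genes did. An unadjusted p below 0.05 was found for 6 members and for 2757 of the 13126 genes tested. Igll1 at 3.82, Vpreb3 at 4.27 and Cd79a at 3.64 had adjusted p of 0.0585, 0.0596 and 0.0526. Cd79b in these cells was at 39.3 and 34.0 CPM in the controls and 31.9 and 38.1 CPM in the knockouts, a log2 fold change of -0.10 (SE 0.151). With copied barcodes kept, the median log2 fold change of the members tested was 3.63 with all libraries. It was 2.16 and 3.94 without control replicates 1 and 2, and 3.48 and 2.47 without knockout replicates 1 and 2. Without control replicate 1 Dntt fell (-1.14).

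In cells without a Kit UMI 2 of 9 rose, against 0.694% of all genes. Cd79b was at 44.0 and 47.3 CPM in the controls and 91.5 and 104 CPM in the knockouts (log2 fold change 1.10, SE 0.114, adjusted p = 0.0145). Pax5 was at 0.528 and 4.50 CPM against 15.04 and 34.7 CPM (3.81, SE 0.707, adjusted p = 0.0475). Without copied barcodes 4 of 9 rose, Pax5, Cd79a, Cd79b and Ebf1, where 0.555% of all genes did. All 4 were at 455 CPM or more in the mature B-like cells. The B-progenitor-like cells hold these 4 genes as well, and which cells carry the rise was not tested. Ms4a1, a marker of mature B cells, was higher by a log2 fold change of 6.57 in the same set, and by 5.72 with copied barcodes kept. In shallow cells a missing Kit UMI does not show missing Kit RNA. With copied barcodes kept, the median log2 fold change of the members tested was 3.06 with all libraries. It was 1.96 and 4.91 without control replicates 1 and 2, and 3.72 and 1.03 without knockout replicates 1 and 2. Whether the changes with and without Kit differ from each other was not tested.

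Within the B-progenitor-like cluster no member passed the test. Of 9 tested, 0 passed, and so did 0% of the 3295 genes tested, with 131 genes and 1 member, Cd79b, at an unadjusted p below 0.05. DESeq2 called 0 of all genes, with 25 at that level. Igll1 was at 1620 and 1836 CPM in the controls and 1266 and 1887 CPM in the knockouts (log2 fold change -0.06, SE 0.187). Ebf1 was at 911 and 852 CPM against 869 and 931 CPM (0.13, SE 0.179). For these genes the groups overlapped, and for Cd79a, Cd79b and Pax5 both knockouts lay below both controls. The share of all genes that do so in this cluster was not counted. Fitted changes ran from -0.42 for Cd79b (SE 0.194) to 0.28 for Dntt (SE 0.222). Of the 357 cells, 206 were copied barcodes, and the control cells are 31 and 107 of which 2 and 2 are not copied, so that these values do not compare independent cells and do not show that the genotypes are alike within the cluster. Without them each control has 2 cells and no test was made. Both knockouts then lay below both controls for Vpreb1, Cd79a and Ebf1, and above them for Rag1.

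The number of members per cell was compared at a fixed depth of 1000 UMIs. Cells with 2 or more members made up 0.517% and 2.53% in the controls and 4.77% and 7.002% in the knockouts, a difference of 4.36 percentage points (controls 1.52 ± 1.42%, knockouts 5.89 ± 1.58%, SD, n = 2, exact two-sided permutation p = 0.333). This is the smallest p that 2 against 2 libraries allow. Without copied barcodes the shares were 0.475% and 1.26% against 6.37% and 7.57%, and without thinning 6.26%, 5.93%, 10.3% and 20.4%. At 5000 UMIs the groups overlapped, with 4.56% and 6.50% against 6.36% and 9.53%. Mature B-like cells had a median of 1312 UMIs, so most of them are left out at that depth and the cells compared are not the same. Among cells with at least 1 member, Kit was found in 8.92% and 7.71% of the control cells and 6.04% and 3.90% of the knockout cells at 1000 UMIs (difference -3.34 percentage points, exact two-sided permutation p = 0.333). Kit in all cells at that depth was 10.4% and 8.47% against 7.23% and 6.62%. Unthinned, the difference took the other sign, at 5.54 percentage points. Mature B-like cells count in both comparisons at 1000 UMIs and without thinning. Of 174 such cells at 1000 UMIs, with copied barcodes kept, 170 held Cd79a, 151 held Cd79b and 0 held Kit. Before thinning, 3 and 2 of them came from the controls and 86 and 155 from the knockouts. What they add to both differences was not tested.

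As a level of background, the neutrophil-like cells were read at 1000 UMIs without copied barcodes (median 8768 UMIs per cell before thinning). Igll1, Ebf1, Vpreb3 and Rag1 had no UMI in 5381 such cells, which at this depth allows up to 0.0558% of cells with a UMI and sets no limit on cells that express them, Pax5 and Cd79a were in 0.019% each, Vpreb1 in 0.093% and Il7r in 0.11%. Unthinned, Igll1 was in 19 of 5390 of these cells (0.353%), Vpreb3 in 7, Ebf1 in 5 and Rag1 in 3. Vpreb1 was in 131 of them (2.43%), Il7r in 31, Cd79a in 16 and Pax5 in 1. In the B-progenitor-like cells (median 14886 UMIs) Igll1 was in 78.4%, Vpreb1 in 79.1%, Cd79a in 76.4% and Pax5 in 29.1%. Dntt was in 6.37% of the neutrophil-like cells and 35.8% of the B-progenitor-like cells, and in 8.02% of all cells. Its level within neutrophil-like clusters of 50 cells or more ran from 6.25 CPM in cluster 9 to 173 CPM in cluster 2, so that it was not a like low share in all of them.

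Other genes of B-lineage specification and pre-B receptor signalling were read from a list of 30, all tested in the library sums. Of these, 8 rose and 2 fell, where 0.91% and 2.09% of all genes did, and without copied barcodes 9 rose and 2 fell, against 1.37% and 2.07%. Those that rose included Cd74, which escorts MHC class II molecules (1.80, SE 0.149, adjusted p = 0.00752), the mature B cell gene Ms4a1 (4.99, SE 0.625, adjusted p = 0.0180), the kinase Blk (2.64, adjusted p = 0.0225), Fcrla (2.41), Cd22, an inhibitory receptor of mature B cells (2.89), Ly6d, a marker of B-committed lymphoid progenitors (2.20), and Pou2af1, a coactivator in B cells (2.55). Ms4a1 was at 0.0830 and 0.719 CPM in the controls and 10.6 and 9.01 CPM in the knockouts. In these cells Ly6d was among the 10 leading genes of the mature B-like, plasma-like and plasmacytoid dendritic-like clusters, and not of the B-progenitor-like one. Blnk, the adaptor below the pre-B receptor (1.75, adjusted p = 0.124), and Rag2, the partner of Rag1 (1.46, adjusted p = 0.124), did not pass, nor did Flt3 (-0.50, adjusted p = 0.210). The 2 that fell were Irf8 (-1.27, adjusted p = 0.0448) and Spi1 (-0.70, adjusted p = 0.0463), the second named after its value was seen, and both act in myeloid as well as lymphoid progenitors. The median of the list was 1.06, against -0.01 over all genes.

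In cells with a Kit UMI 6 of 29 list genes rose and 2 fell, where 0.913% and 2.18% of all genes did. Without copied barcodes 5 rose and 1 fell, against 0.815% and 2%. Ly6d (2.62, adjusted p = 0.00507), Cd74 (1.72), Irf8 (-1.74), Pou2af1 (3.92), Irf4 (3.30), Fcrla (4.26) and the mature B cell marker Ms4a1 (4.69, adjusted p = 0.0469, and 0.0529 without copied barcodes) passed in this set, whereas Blnk (1.15, adjusted p = 0.332), Rag2 (1.07) and Flt3 (-0.63) did not. In cells without a Kit UMI 11 of 30 rose, among them Blnk (2.56, adjusted p = 0.0439), where 0.694% of all genes did. Without copied barcodes 5 of 29 rose, against 0.555% of all genes, and Blnk did not pass (2.71, adjusted p = 0.0936). In the B-progenitor-like cluster 0 of 21 passed, where 0% of all genes did, with Blnk at -0.42 (SE 0.295).

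Dntt was also followed through the clusters, since its sums overlapped between the genotypes. In the 6 clusters with at least 20 cells of each library, without copied barcodes, both controls lay above both knockouts in 4. In cluster 16, which has no name and whose cells come mostly from the knockouts, it was at 475 and 794 CPM in the controls and 101 and 112 CPM in the knockouts. In cluster 14, also unnamed, it was at 269 and 948 CPM against 135 and 214 CPM, and in the stem-like cluster 1 at 94.9 and 238 CPM against 62.6 and 46.0 CPM. The knockout values of cluster 1 rest on only 10 and 11 Dntt UMIs in 22 and 39 cells. Over all gene and cluster pairs with 20 or more UMIs, 20.7% had both controls above both knockouts. The unnamed clusters 13, 14 and 16 held 8.10% and 11.8% of the control cells and 63.3% and 69.3% of the knockout cells, and 32.6%, 46.4%, 91.5% and 85.2% of the Dntt UMIs of control replicates 1 and 2 and knockout replicates 1 and 2. Il7r in cluster 16 was at 6.13 and 46.8 CPM against 1.82 and 0.993 CPM. These clusters were singled out after their values were seen, and no test was made within them.

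Over the 23 clusters, the genes most like each member were found by the correlation of log2(CPM + 5), a description in which all points share the libraries and copied barcodes. Vpreb2 was the nearest to Vpreb1 (Pearson r = 0.995) and to Igll1 (r = 0.983). Nearest to Rag1 was Akap12 (r = 0.995), to Pax5 Chst3 (r = 0.991), to Cd79a Blnk (r = 0.983) and to Vpreb3 Cecr2 (r = 0.979). The nearest genes of the broad members were less alike, with 2010007H06Rik for Cd79b (r = 0.954), Frmd6 for Dntt (r = 0.927) and Epha2 for Il7r (r = 0.919). Gfra2 and Enpep were among the 3 nearest of both Igll1 and Vpreb1. Also among the 3 nearest were Myl10 and Ramp2 for Dntt, Slamf6 for Vpreb3, Cd79a and Cd79b, Sorcs2 for Cd79a, Tnfrsf13c for Cd79b, Chst3 for Ebf1, Cecr2 for Ebf1, Pax5 and Rag1, Edaradd for Rag1, and Atp1b1 and Lef1 for Il7r.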

How the data were processed

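LSK cells were counted with 10x Genomics 3′ chemistry in 2 control and 2 Nup358 knockout libraries, each a pool of 3 mice. The authors aligned reads to GRCm38 (mm10) and counted with Cell Ranger 3.1, per the labels, and the deposited matrices hold UMI counts per gene and cell, not normalized. The study used DESeq2, which here is an alternative to edgeR.

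The genes and lists described were chosen with earlier results of these data known. Barcodes with fewer than 200 genes or over 10% mitochondrial UMIs were left out, and doublets were not removed. Cells were clustered with scanpy 1.11.5 (Python 3.11.15) on 10 principal components of 2000 variable genes without the members (15 neighbours, Leiden resolution 1, igraph 0.11.9), and a name needed 3 markers raised 2-fold and a mean log2 fold of 1. The marker lists hold no member. UMIs were summed per library and tested in R 4.3.3 with edgeR 4.0.16 (TMM scaling, filterByExpr, quasi-likelihood F test, Benjamini-Hochberg over all genes tested, threshold 0.05) or DESeq2 1.42.0. Thinning drew 1000 UMIs per cell with a fixed seed, and shallower cells were left out, which kept 8127 and 3555 control and 2558 and 3642 knockout cells. With 2 libraries per group the exact permutation test cannot go below p = 0.333. Named are all members and Kit, up to 8 list genes past the threshold by smallest p, Flt3, Rag2, Blnk and Ms4a1, and the 3 genes nearest each member over clusters of 50 cells or more among genes with 100 UMIs or more. The values of 1 gene that this rule names are not reported here, and counts over the list include it. Positions are from GENCODE on GRCm38 and upstream windows from RefSeq on GRCm38.p6. In counts simulated for all kept cells, 93 of 100 genes changed by a log2 fold of 2 and 100 of 100 changed by 4 were found over 13671 genes, with 12 false calls among 205. These counts were drawn with the trend of spread over all genes and not with the members' own spread. Recovery was not tested at a spread like that of Igll1, at 10.7 and 73.4 CPM in the knockouts.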

Additional observations from a re-analysis of the deposited data

How the results depend on the processing

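Each count of members called rests on 2 libraries per genotype. In all kept cells 0 of 10 passed, and scaling by relative log expression, DESeq2, a minimum of 500 genes and leaving out mature B-like cells gave 0 too. In these 4 alternatives 0.6% to 2.41% of all genes were higher. No filter on low counts gave 8, where 4.51% of all genes were higher, and leaving out copied barcodes gave 3, where 1.37% were. The median log2 fold change of the members ranged from 0.67 to 4.30 without each library. With a Kit UMI 1 passed in the reported fit, against 0 with relative log expression, with DESeq2 and without copied barcodes. In these 3 alternatives 0.898%, 1.77% and 0.815% of all genes were higher. Without the filter 7 passed (6 higher and Dntt lower), where 675 and 1109 of 18561 genes were higher and lower. With at least 2 Kit UMIs 2 passed, where 0.683% of all genes were higher. The median log2 fold change of the members ranged from 2.16 to 3.94 without each library. Without a Kit UMI 2 passed, against 1 with DESeq2, 10 without the filter and 4 without copied barcodes. In the same order 0.694%, 0.799%, 3.19% and 0.555% of all genes were higher. Without each library the median log2 fold change of the members ranged from 1.03 to 4.91. In the B-progenitor-like cluster all alternatives gave 0, and the fit without copied barcodes was not run because each control has 2 such cells. The labels give both genotypes replicates 1 and 2. The deviations of same-numbered libraries correlated with r = 0.00298 over 13844 genes, so the numbers were not taken as pairs. A replicate block gave 6 members in all kept cells, 6 with a Kit UMI, 8 without and 0 in the B-progenitor-like cluster. With the block 2.75%, 3.05%, 2.81% and 0% of all genes were higher in the same order.

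The difference in cells with 2 or more members ranged from 3.25 to 5.48 percentage points without each library and kept its sign in the other alternatives. That in the Kit share of member cells ranged from -4.41 to -2.28 and turned to 5.54 without thinning. With libraries pooled, the number of members whose cells held Kit less often than all cells was 10 of 10 at 1000 UMIs, without copied barcodes and at 5000 UMIs, and 7 unthinned, but within both controls at 5000 UMIs cells with Vpreb1 held it more often (46.0% and 60% against 35.0% and 41.9%). Directions turned only for values that had not passed. In all kept cells, without each library, the log2 fold change of Dntt ranged from -0.72 to 0.59 and that of Il7r from -0.10 to 1.94. With a Kit UMI the ranges were -1.14 to 0.43 for Dntt, -0.24 to 0.029 for Cd79b and -0.71 to 1.44 for Il7r, and Il7r was at -0.62 with at least 2 Kit UMIs. Without a Kit UMI, Dntt ranged from -0.028 to 1.09 and was at -0.087 without copied barcodes. In the B-progenitor-like cluster the ranges were -0.36 to 0.21 for Igll1, -0.55 to 0.093 for Vpreb1, -0.20 to 0.15 for Vpreb3 and -0.51 to 0.59 for Il7r, and no filter gave 0.12 for Igll1, 0.14 for Vpreb3 and 0.023 for Il7r. The cause was not tested. Depth limits Rag1 in particular, with 4 to 8 UMIs in 3 of the 4 libraries.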
